A study of Mus musculus with 12 samples.

Results

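The genes described here are 9 genes of the plasma cell programme, *Prdm1*, *Irf4*, *Sdc1*, *Jchain*, *Mzb1*, *Tnfrsf17*, *Tnfrsf13b*, *Ell2* and *Ighm*, listed by name from a table of 41444 mouse genes. Their RNA levels were measured by RNA-seq in B cell acute lymphoblastic leukemia (B-ALL) cells. All cells used here came from bone marrow pre-B cells of Ctnnb1 fl/fl mice, had been grown with IL-7 and then, without it, transformed with BCR-ABL1, and carried the ERT2 vector, which holds no Cre and leaves the floxed β-catenin gene in place. Both groups received 1 µM 4-OHT for 2 days. Of these, 3 samples received nothing further in their labels (control) and 3 were also exposed for 1 day to 40 nM LY2090314, a small-molecule inhibitor of GSK3β, the kinase that marks β-catenin for degradation. The comparison asks how these genes respond to the inhibitor in cells with the β-catenin gene in place. Whether the responses depend on β-catenin was not tested, and its protein is not measured in these data. Samples with Cre-ERT2 are not analysed here, since their columns could not be matched to a group by name. The labels give no vehicle for the control samples.

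Plasma cells are the antibody-secreting end stage of the B lineage. Blimp-1, encoded by *Prdm1*, is the transcriptional repressor that shuts down the mature B cell programme and *Myc* during this step, and IRF4 acts upstream of and alongside it. Pre-B cells, from which these leukemias arise, stand far before that stage: they make the immunoglobulin µ heavy chain and pair it with a surrogate light chain, and they secrete no antibody.

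Values are regularized log2 (rlog) values as deposited, that is, read counts scaled for library size and put on a log2 scale, with genes of few reads drawn towards their own mean. Differences of weakly expressed genes are therefore understated, and values below 0 are the lowest in the table. In all 6 samples 21786 genes are listed at exactly 0, among them *Spcs1*, a subunit of the signal peptidase that every cell uses, so a gene listed at 0 is not taken as absent. Read totals per library are unknown from such values, so no interval from counting error is given. Differences were tested with limma across 11536 genes with a mean of at least 3, and p-values adjusted by the Benjamini-Hochberg method were called under 0.05. Between samples of a group the SD of the difference across genes was 0.185 to 0.253, and between groups it was 0.581 to 0.622. Treated samples 1 and 2 share a leading number in their column names and are told apart by the letters A and B, whose meaning is not given in the sources used here. They were the closest pair of their group (0.186, against 0.253 for either with treated sample 3), and about as far apart as control samples 1 and 2 (0.185). They were counted separately. The study's text describes the replicates of this experiment as mice, but the column names tie no sample to a mouse, and if treated samples 1 and 2 share a source the p-values are too small.

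The 4 genes that rose with LY2090314 were *Prdm1*, *Irf4*, *Mzb1* and *Jchain*, and the 2 that fell were *Ighm* and *Sdc1*. *Prdm1* moved most by far, 22.0-fold up, followed by *Irf4* at 2.66-fold up. *Ighm* was 2.29-fold and *Sdc1* 2.13-fold lower. *Tnfrsf13b* and *Ell2* did not pass the threshold, and *Tnfrsf17* was too low to be tested. Thus 6 of 8 genes tested were called, where 50.1% of all genes tested were called. Of all genes 24.8% were called higher and 25.3% lower, against 4 and 2 of these 8. The groups did not overlap for 7 of the 8 genes, as for 58.6% of all genes. The median log2 difference of the 8 was 0.13, beside 0.01 over all genes tested.

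**Figure D1:**
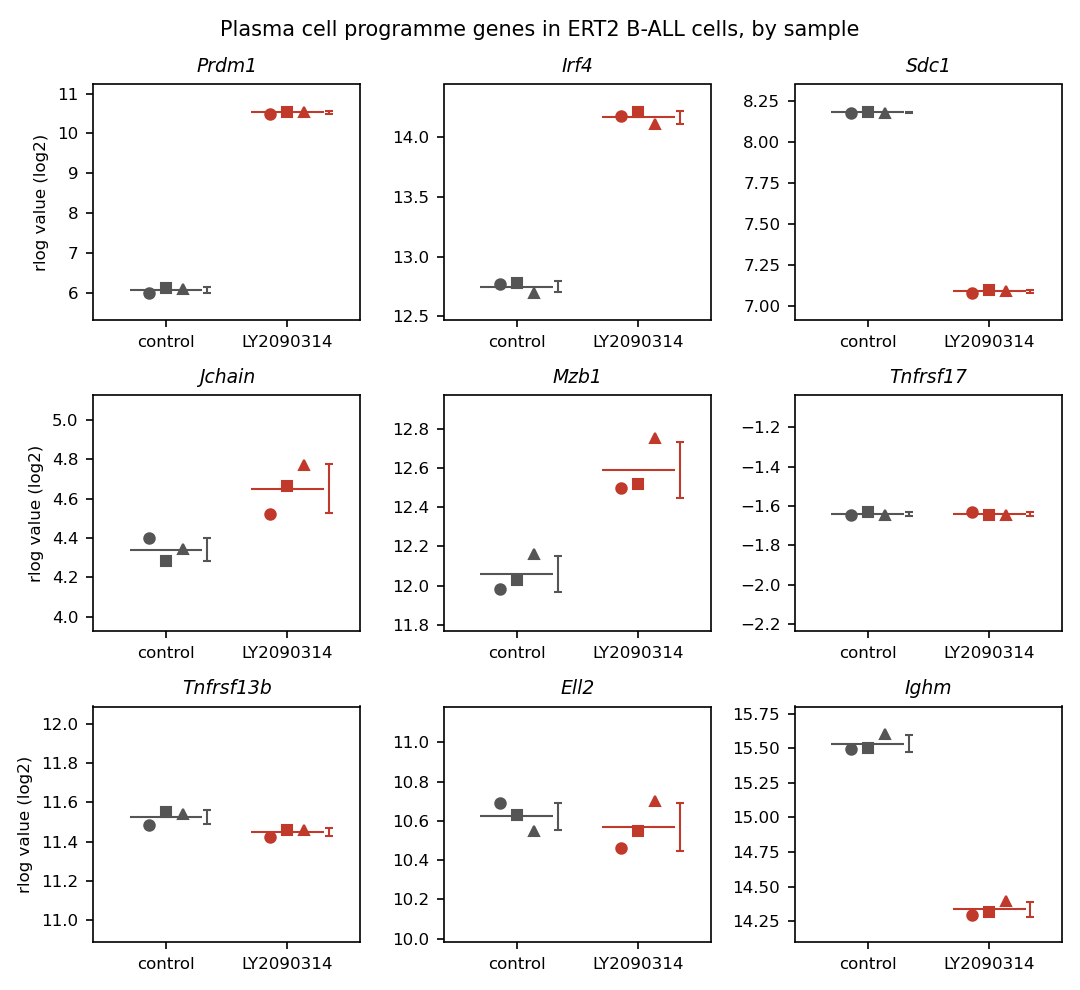
Rlog value (log2 scale, y axis, with its own range in each panel) of the 9 plasma cell programme genes in 3 control and 3 LY2090314-treated samples. Markers are single samples (circle, square and triangle for samples 1, 2 and 3 of each group, not paired), horizontal lines are group means and whiskers are ± 1 SD; *Prdm1* and *Irf4* sit higher and *Ighm* and *Sdc1* lower in all 3 treated samples, while *Ell2* and *Tnfrsf17* overlap.

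The transcription factors changed most. *Prdm1* (ENSMUSG00000038151, chromosome 10 of GRCm38, 44437177 to 44528501, minus strand) was at 5.99, 6.11 and 6.10 in the control samples and at 10.50, 10.54 and 10.55 in the treated samples. Every treated sample lay over 4 log2 units above every control sample, and the spread within either group was small (SD 0.068 for control and 0.028 for treated, n = 3 each). The log2 difference was 4.46 (standard error 0.069, 95% interval 4.30 to 4.62, adjusted p = 1.6e-08, limma). By size of the rise *Prdm1* ranked number 10 of the 11536 genes. An exact two-sided permutation test over the 6 samples gave p = 0.10, the smallest that 3 against 3 samples allow, and the same holds for each other member whose groups do not overlap.

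*Irf4* (ENSMUSG00000021356, chromosome 13, 30749226 to 30766976, plus strand) encodes a factor that pre-B cells already use and that plasma cells need at a higher level. It was abundant without the inhibitor, at 12.77, 12.78 and 12.69 in the control samples, and reached 14.17, 14.21 and 14.11 in the treated samples. The groups were separated by 1.33, far more than the spread within either (SD 0.047 and 0.052, n = 3 each). *Irf4* rose by 1.41 (standard error 0.055, 95% interval 1.29 to 1.54, adjusted p = 7.6e-07, limma), which ranked number 262 among the rises.

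Promoter windows are shown for *Prdm1*, *Irf4* and *Sdc1*, the genes with the largest differences for which a window was at hand. Each runs from 250 bases before to 50 bases after the RefSeq gene start in GRCm38.p6, 5′ to 3′ on the gene's own strand. Capitals mark matches to the Ikaros core motif GGGAA on either strand.

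Prdm1, chr10:44458699-44458998, minus strand: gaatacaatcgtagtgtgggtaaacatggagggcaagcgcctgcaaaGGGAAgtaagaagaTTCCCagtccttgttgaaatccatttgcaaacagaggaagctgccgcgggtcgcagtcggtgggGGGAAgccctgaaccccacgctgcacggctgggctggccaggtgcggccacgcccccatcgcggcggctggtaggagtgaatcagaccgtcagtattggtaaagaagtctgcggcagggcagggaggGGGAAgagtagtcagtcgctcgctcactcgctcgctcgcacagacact

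Irf4, chr13:30748983-30749282, plus strand: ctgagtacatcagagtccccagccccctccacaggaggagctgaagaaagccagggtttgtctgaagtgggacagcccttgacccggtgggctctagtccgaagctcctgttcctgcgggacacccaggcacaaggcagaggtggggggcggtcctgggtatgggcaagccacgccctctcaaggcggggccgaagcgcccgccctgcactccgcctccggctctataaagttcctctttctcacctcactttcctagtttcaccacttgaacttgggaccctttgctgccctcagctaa

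Sdc1, chr12:8771146-8771445, plus strand: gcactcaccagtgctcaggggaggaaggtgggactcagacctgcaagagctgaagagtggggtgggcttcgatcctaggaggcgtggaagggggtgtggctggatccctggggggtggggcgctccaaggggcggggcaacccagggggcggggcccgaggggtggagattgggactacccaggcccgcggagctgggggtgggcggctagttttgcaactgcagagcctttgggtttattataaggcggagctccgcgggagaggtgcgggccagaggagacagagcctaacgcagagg

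The RefSeq start of *Prdm1* lies inside the longer GENCODE span of the gene given above. Its window holds 4 matches to the Ikaros motif. Windows were searched for 7 of the 9 genes, not for *Mzb1* or *Ighm*. Of the 7, 3 (*Prdm1*, *Jchain* and *Tnfrsf13b*, the latter pair with 1 match each) hold that motif, as do 62.7% of 32851 promoter windows of the same length. None of the 7 holds the TCF/LEF motif, searched as CTTTGAT or CTTTGAA on both strands, which 8.65% of all windows hold, or the E-box CACGTG, which 7.15% hold. The motifs do not overlap one another in these windows. These matches describe letters in short windows and do not show binding.

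**Figure D2:**
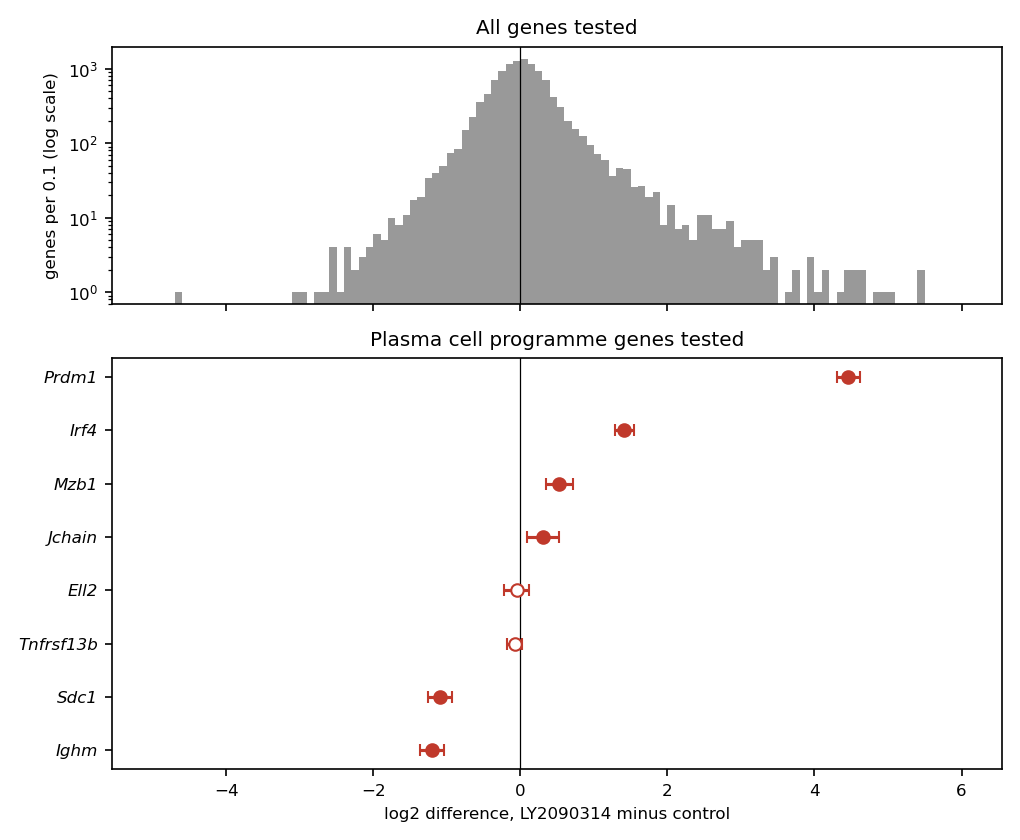
Top, log2 differences (LY2090314 minus control) of all 11536 genes tested, as the number of genes per bin of 0.1 on a log axis. Bottom, the 8 plasma cell programme genes tested on the same x axis, with 95% intervals from limma; filled points passed an adjusted p of 0.05 and open points did not, and *Prdm1* at 4.46 lies at the far right edge of the distribution of all genes.

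Genes of antibody assembly and secretion did not move together. *Ighm* (ENSMUSG00000076617, chromosome 12, 113418558 to 113422730, minus strand) is the constant region gene of the µ heavy chain, which forms the pre-B cell receptor on pre-B cells and secreted IgM in plasma cells. It was at 15.49, 15.50 and 15.60 in the control samples and at 14.29, 14.32 and 14.40 in the treated samples. All treated samples were lower, and the gap between the groups was 1.09. The log2 difference of *Ighm* was -1.20 (standard error 0.070, 95% interval -1.36 to -1.04, adjusted p = 6.0e-06, limma). Gene-level values do not separate the membrane from the secreted form of the transcript.

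*Mzb1* (ENSMUSG00000024353) encodes an endoplasmic reticulum protein that helps immunoglobulin heavy chains to fold and assemble. Its values were 11.98, 12.03 and 12.16 in the control samples and 12.50, 12.52 and 12.75 in the treated samples. The groups were apart by 0.34, although the third treated sample stood above the other two. *Mzb1* rose by 0.53 (standard error 0.081, 95% interval 0.34 to 0.72, adjusted p = 0.0011, limma). An annotated gene on the same strand, *SPATA24*, shares exon sequence with it and is not analysed here.

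*Jchain* (ENSMUSG00000067149, chromosome 5, 88519809 to 88527891, minus strand) encodes the chain that joins IgM and IgA into polymers and is a hallmark of antibody-secreting cells. It stayed low, at 4.40, 4.28 and 4.34 in the control samples and 4.52, 4.66 and 4.77 in the treated samples. The groups did not overlap, but the gap between them was only 0.12, about as large as the SD of the treated samples (0.12, n = 3). *Jchain* was higher by 0.31 (standard error 0.093, adjusted p = 0.025, limma). This call did not hold without control sample 2 (adjusted p = 0.084), control sample 3 (0.059), treated sample 2 (0.067) or treated sample 3 (0.058), nor with quantile normalization, where the difference was 0.19 (adjusted p = 0.16, limma).

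*Sdc1* (ENSMUSG00000020592, chromosome 12, 8771323 to 8793715, plus strand) encodes CD138, the heparan sulfate proteoglycan by which plasma cells are usually recognized. The control samples were nearly identical at 8.18, 8.19 and 8.18, and the treated samples at 7.08, 7.10 and 7.09 were lower throughout. With an SD of 0.0029 and 0.010 (n = 3 each), *Sdc1* varied least of the 8 genes tested. The log2 difference of *Sdc1* was -1.09 (standard error 0.069, 95% interval -1.25 to -0.93, adjusted p = 9.8e-06, limma). It thus moved against *Prdm1*, *Irf4* and *Mzb1*. The fall went in the direction of *Ighm* and of 10 of 13 pre-B cell markers (2 others rose). These leukemia cells held the *Sdc1* transcript without the inhibitor, so its fall is not read as loss of a plasma cell trait.

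Of the 2 receptors for the survival ligands BAFF and APRIL among the 9 genes, 1 was tested and was not called, and the other was too low to test. *Tnfrsf13b* (ENSMUSG00000010142, chromosome 11, 61126755 to 61149372, plus strand), which encodes TACI, was at 11.49, 11.55 and 11.54 in the control samples and at 11.43, 11.46 and 11.46 in the treated samples. Its treated samples lay below the control samples by a margin of 0.025, and the difference of -0.08 (95% interval -0.18 to 0.02) was not called (adjusted p = 0.17, limma). *Tnfrsf17* (ENSMUSG00000022496, chromosome 16, 11313812 to 11320074, plus strand) encodes BCMA, the receptor on which long-lived plasma cells depend. It lay between -1.65 and -1.63 in all 6 samples, near the lowest values in the table, so it was below the limit for testing and a change could not be seen at this level.

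*Ell2* (ENSMUSG00000001542, chromosome 13, 75706757 to 75772364, plus strand) encodes an elongation factor that directs immunoglobulin heavy chain transcripts towards the secreted form in plasma cells. It was at 10.69, 10.63 and 10.55 in the control samples and at 10.46, 10.55 and 10.70 in the treated samples, so the groups overlapped. The difference was -0.05 (95% interval -0.22 to 0.11, adjusted p = 0.58, limma), and without treated sample 1 it was 0.003. An annotated antisense transcript shares exon sequence with *Ell2*, and the strand setting used for counting is not given in the sources used here.

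Across the treated samples, sample 3 had the highest value of *Mzb1*, *Jchain*, *Ell2* and *Ighm* and the lowest of *Irf4*. By very small margins over sample 2, sample 3 was also highest for *Prdm1* (10.5465 against 10.544) and *Tnfrsf13b* (11.4609 against 11.4591). When group mean levels were put on a common scale by subtracting the log2 of exon length in kilobases, *Prdm1* ranked number 7 of the 8 genes tested in the control group, at 3.59, and number 5 in the treated group, at 8.05. With LY2090314 it stood above *Ell2* (7.27) and *Sdc1* (5.16), both of which it lay below without the inhibitor (7.33 and 6.25). *Ighm* kept the first place (14.62 and 13.42), ahead of *Mzb1* (11.78 and 12.31), *Irf4* (10.45 and 11.87) and *Tnfrsf13b* (10.02 and 9.94), and *Jchain* was last (3.01 and 3.32). Exon length here is the union of all annotated exons, which overstates the length of most transcripts.

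The genes whose values followed *Prdm1* most closely, by Euclidean distance over the 6 samples after centring each gene on its control mean, were *Tsc22d1* (distance 0.10, difference 4.45), *Cers6* (0.28, difference 4.58) and *Ppl* (0.30, difference 4.62). Over 2 groups of 3 samples this likeness reflects little more than the size of the rise.

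Other factors of the plasma cell stage leaned upwards. Of 9 such genes, all tested, 6 rose and none fell (5 rose when samples were centred on the median; with quantile normalization 6 rose and *Pou2af1* fell by 0.12). *Xbp1*, the regulator of the secretory apparatus in plasma cells, went from 11.17, 11.13 and 11.26 to 12.56, 12.57 and 12.59, a rise of 1.39 (standard error 0.050, adjusted p = 5.5e-07, limma). *Creb3l2*, a membrane-bound factor related to the unfolded protein response, rose by 2.07, *Ikzf3* (Aiolos) by 1.06 and *Atf6* by 0.71. The differences of *Zbtb20* (-0.28), *Pou2af1* (-0.06) and *Eaf2* (0.22) did not pass the threshold. The smallest called rises were those of *Cdkn2c* (0.21) and *Arid3a* (0.20). The median difference of the list was 0.22, beside 0.01 over all genes tested. Of all genes tested, 24.8% were called higher and 25.3% lower.

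The secretory machinery that plasma cells expand did not rise as a group alongside *Xbp1* RNA. Gene-level values do not separate the spliced from the unspliced form of the *Xbp1* transcript, and the activity of its protein was not measured. Of 21 genes tested among 25 listed, 8 rose and 6 fell, with a median difference of 0.03 (5 rose and 6 fell when centred on the median, and 7 and 6 with quantile normalization). Over all genes tested 24.8% were called higher and 25.3% lower. *Edem1*, which helps to clear misfolded proteins, rose most, by 1.69. The next in size were falls, of *Ckap4* by 0.89, of the chaperone cofactor *Sdf2l1* by 0.52 and of calreticulin (*Calr*) by 0.51. The main chaperone *Hspa5* differed by -0.06 (adjusted p = 0.31, limma). Without control sample 1, or without control sample 2, 9 genes of the list passed in place of 14.

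Of 11 genes listed as repressed by Blimp-1 in B cells, 9 were tested, of which 6 fell and 2 rose, with a median difference of -1.10 (6 and 2 when centred on the median, 6 and 3 with quantile normalization, where *Cd79a* rose too). Over all genes tested 25.3% were called lower and 24.8% higher. *Myc* fell by 2.64, from 11.84, 11.77 and 11.76 to 9.15, 9.17 and 9.13. *Pax5*, the factor that holds B cell identity, fell by 1.54, *Id3* by 1.50, *Spib* by 1.43, *Cd22* by 1.10 and *Bach2* by 0.38. *Cxcr5*, a chemokine receptor of follicular B cells that is low in plasma cells, went the other way and rose by 3.40 (adjusted p = 8.7e-08, limma), and *Bcl6* rose by 0.46. *Pax5* shares exon sequence with an annotated transcript on the other strand, *5730488B01Rik*, whose mean went from 11.28 to 8.77. Whether the change of any gene in this list depends on Blimp-1 was not tested.

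**Figure D3:**
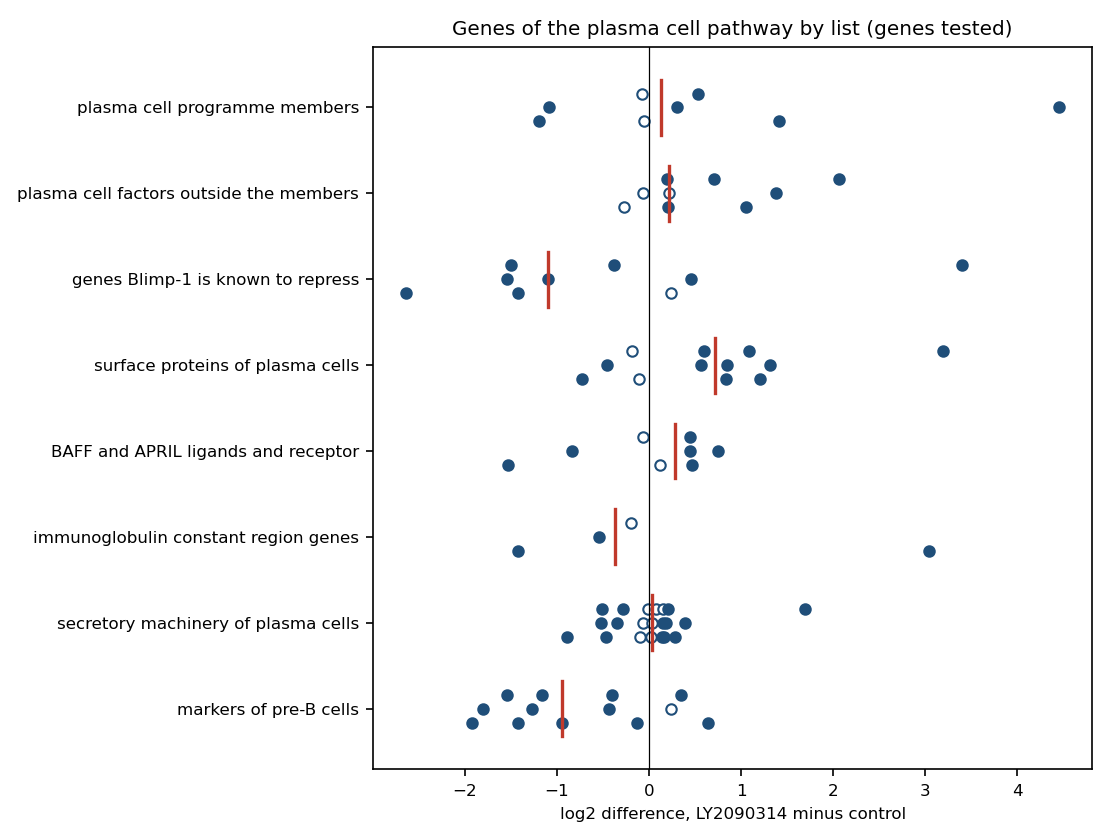
Log2 difference (LY2090314 minus control, x axis) of the genes tested in the plasma cell programme and in 7 further lists, 1 point per gene; filled points passed an adjusted p of 0.05, open points did not, and red bars are list medians. The factors and surface proteins lean to the right, most genes repressed by Blimp-1 and most pre-B cell markers lie to the left, with *Cxcr5* at 3.40 the farthest to the right among them, and the secretory machinery is centred near 0.

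Among surface proteins of plasma cells, 12 of 16 were tested, of which 8 rose and 2 fell (8 and 3 under either rescaling), with a median difference of 0.72. The shares called over all genes tested were 24.8% higher and 25.3% lower. *Cd28* rose by 3.20, *Slamf7* by 1.32, *Itga4* by 1.20 and the bone marrow homing receptor *Cxcr4* by 1.09. In the control samples *Itga4*, *Cxcr4* and *Slamf7* were already at means of 13.00, 11.60 and 10.44, and *Cd28* at 5.75. These transcripts are thus not particular to plasma cells. *Cd38* fell by 0.73 and *Il6st*, a signalling chain of the IL-6 receptor, by 0.46. *Cd27*, *Ly6c1* and *Ccr10* lay below 0 in all samples and *Ly6k* was listed at 0.

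In the BAFF and APRIL pathway, the BAFF receptor gene *Tnfrsf13c* fell by 1.53 (adjusted p = 1.2e-06, limma), unlike *Tnfrsf13b*. Of 8 genes tested among the 10 listed, 4 rose and 2 fell, with a median difference of 0.28 (5 rose with quantile normalization). The shares over all genes tested were 24.8% called higher and 25.3% lower. *Mcl1*, the survival gene that BCMA signals maintain in plasma cells, rose by 0.46 and *Nfkb2* by 0.45, while *Traf3* fell by 0.84. The ligand gene *Tnfsf13* was listed at 0 and *Tnfsf13b* lay below 0 in all 6 samples.

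Other immunoglobulin genes changed in both directions. *Igkc*, the κ light chain constant region, rose by 3.05, from 8.50 ± 0.087 to 11.55 ± 0.0069 (SD, n = 3 each), while *Igll1*, a part of the surrogate light chain, fell by 1.42 and *Ighd* by 0.54. *Ighg2b* differed by -0.19 (adjusted p = 0.092, limma), and it passed the threshold with quantile normalization (-0.29). Of 10 listed genes in the table, 4, among them *Igha* and *Ighg3*, were below 0 in all samples, and *Ighg1* and *Ighe* were listed at 0.

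Markers of pre-B cells moved with *Ighm*. Of 13, all tested, 10 fell and 2 rose (3 rose with quantile normalization), with a median difference of -0.94. Over all genes tested 25.3% were called lower and 24.8% higher. The log2 of the summed linear level of the pre-B cell markers was 16.41 to 16.44 in control and 15.89 to 16.04 in treated samples. *Rag1* fell by 1.93 and *Rag2* by 1.81, while *Dntt* rose by 0.64 and *Il7r* by 0.35. In bulk samples fewer cells of a kind and less RNA per cell cannot be told apart. Among markers of other cells, 5 of 8 for T cells (*Cd3e*, *Cd3d*, *Cd3g*, *Cd4* and *Cd8a*), 2 of 8 for myeloid cells (*Cd14* and *Fcgr1*), 2 of 5 for erythroid cells and 2 of 6 for stromal cells (*Col1a1* and *Pdgfrb*) were below 0 in all samples. A further 1, 3, 1 and 2 of these lists (*Trbc2*, then *Mpo*, *Elane* and *Adgre1*, then *Hba-a1*, then *Col1a2* and *Cxcl12*) were listed at exactly 0, so their level is not known. The log2 of the summed level of the 8 T cell markers was 11.41 to 11.53 in control and 12.44 to 12.68 in treated samples. Nearly all of this sum came from *Lck* (mean 11.41 in control and 12.36 in treated samples) and *Zap70* (6.58 and 9.38). These were the only T cell markers tested, so the rise is not one of the T cell markers as a set. For 8 myeloid markers the log2 of the summed level was 5.88 to 6.08 and 6.42 to 6.54, with *Lyz2* tested. For 6 stromal markers it was 10.47 to 10.55 and 11.61 to 11.78, with *Pecam1*, which B cells also express, tested. It was 3.11 to 3.19 and 3.09 to 3.12 for 5 erythroid markers, and 8.18 to 8.48 and 8.01 to 8.30 for 8 markers of mature and germinal centre B cells. The part of these cell types in the results was not tested. The β-catenin transcript *Ctnnb1*, present in both groups, fell by 0.35 (adjusted p = 0.00030, limma).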

How the data were processed

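Polyadenylated RNA was sequenced as stranded paired-end libraries. According to the study's methods and the submitters' processing notes, the authors quantified transcripts with Salmon 1.4.0, aligned reads to GRCm38 and used DESeq2 1.30.1. The authors deposited rlog (log2) values for 41444 genes in 12 columns. Columns were matched to groups by name, 3 to ERT2 control and 3 to ERT2 with LY2090314. The other 6 columns, whose names combine Cre and LY in more than one spelling, were not used. The study's text gives a shorter exposure to LY2090314 than the labels, whose time is used here. Symbols were matched to 41157 identifiers and positions taken from GENCODE vM21, and promoter windows came from RefSeq.

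The groups were compared by limma 3.58.1 (R 4.3.3, mean-variance trend, Benjamini-Hochberg adjustment) over 11536 genes with a mean of at least 3, and the steps were tested on simulated data. Single genes also had an exact two-sided permutation test over the 6 samples. Gene lists were written by hand and are described by counts and medians. The 9 genes named first, *Myc*, *Pax5*, *Xbp1* and *Ctnnb1*, up to 4 called genes per list with the largest non-overlapping differences, and the 3 genes most like *Prdm1* were named by rule, as were list genes that did not pass. Further called genes of the lists, such as *Spib*, *Bach2*, *Cd22*, *Bcl6*, *Cd38*, *Il6st*, *Dntt*, *Il7r* and *Irf5*, were named after their values were seen. Some list genes are counted but not reported here by name. The 9 genes and the lists were chosen with earlier results of these data known.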

Additional observations from a re-analysis of the deposited data

How the results depend on the processing

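Between 4 and 6 of the 8 tested genes of the plasma cell programme passed the threshold in the 14 alternatives. Of *Prdm1*, *Irf4*, *Mzb1*, *Ighm* and *Sdc1*, each kept its direction and its call in the 12 alternatives that refit the data. The log2 difference of *Prdm1* lay between 4.42 and 4.48 and that of *Irf4* between 1.39 and 1.44. *Jchain* lost its call in 6 of 11 alternatives (adjusted p from 0.015 to 0.16, limma), including no lower limit on the mean (0.051), and was not tested with a limit of 5. With each sample left out, *Ell2* ranged from -0.12 to 0.0029 and never passed.

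Requiring a log2 difference of at least 1 left 693 of the 5778 called genes, 4 of 10 among surface proteins, 3 of 6 among plasma cell factors, 1 each in the BAFF and APRIL, IRF, PRDM and secretory lists, and 0 in the ELL list, where none of the 11 genes tested differed by as much. An adjusted p under 0.01 left 9 secretory genes and 2 of the ELL list, as did no lower limit on the mean for the ELL list (2). Counting treated samples 1 and 2 as 1, an alternative chosen after seeing the data, left 4940 genes called, all 6 called genes of the programme in number, and 2 of the ELL list. With each sample left out, 4741 to 6225 genes, 9 to 14 secretory genes and 2 to 6 of the ELL list were called. No paired analysis was possible because columns could be tied to a group but to no numbered replicate. Without read totals, the limits set by depth could not be assessed.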

Other observations

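Relatives of the programme's regulators moved in both directions, as did all genes tested, of which 24.8% were called higher and 25.3% lower. Among 10 other PRDM genes, 8 were tested, of which 2 rose and 2 fell (1 and 2 under either rescaling). The PRDM counts lie near those shares. *Prdm16* fell by 1.18, while *Prdm2* rose by 0.70, against 4.46 for *Prdm1*. *Prdm15* rose by 0.23, a call lost under either rescaling (adjusted p = 0.056 and 0.13, limma). Of 8 other IRF genes, 6 were tested, of which 2 rose and 3 fell under each scaling. *Irf1*, an interferon-induced activator, rose by 1.43, about as much as *Irf4* (1.41), and *Irf9* rose by 0.89. *Irf8*, which shares DNA targets with *Irf4* in B cells, fell by 0.49, *Irf2* by 0.43 and *Irf5* by 0.30.

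Among genes of transcription elongation related to *Ell2*, of 12 listed genes 11 were tested, of which 3 rose and 1 fell (2 and 1 when centred on the median, 3 and 1 with quantile normalization, where *Aff4* passed and *Ccnt1* did not). Calls in this list were no more frequent than over all genes tested, of which 50.1% were called. *Mllt3* rose by 0.93 and *Ccnt2* by 0.59, and *Mllt1* fell by 0.44. The family member *Ell* differed by -0.14 (adjusted p = 0.12, limma), and *Ell3* by 0.25 (adjusted p = 0.062, limma).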
